A study of Mus musculus with 18 samples.

Results

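Solute carriers are membrane proteins that move amino acids, sugars, nucleosides, vitamins, metals and other small molecules across the plasma membrane and the membranes of organelles. The genes described here were those whose symbol follows the solute carrier pattern (Slc, a family number, the letter a and a member number) and whose mean over the 6 deposited columns was at least 10 RPKM, the read count divided by gene length in kb and by library depth in M reads (M, the prefix mega). Of 23038 genes in the tables, 338 carried such a symbol and 76 of these reached the minimum, among 6295 genes of any name that did. The pattern also took in 3 genes that do not encode transporters by name, Slc7a6os and the scaffold proteins Slc9a3r1 and Slc9a3r2, and they are kept in the counts.

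Haematopoietic stem cells (HSCs) renew themselves and give rise to all blood lineages, and their supply of amino acids, glucose, iron, folate and mitochondrial substrates passes through solute carriers. Solute carriers of family 25 sit mostly in the inner mitochondrial membrane, families 30 and 39 carry zinc out of and into the cytosol, and families 1, 6, 7, 38 and 43 carry mostly amino acids. N6-methyladenosine (m6A) is a base modification of messenger RNA, written in the nucleus by a complex whose catalytic subunit is Mettl3 and read by proteins that affect the stability, splicing and translation of the transcript.

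The study asked which transcripts of adult mouse HSCs carry m6A that depends on Mettl3. HSCs came from C57BL/6 mice of 2 genotypes, Mettl3-deficient (Mx1-cre with Mettl3fl/fl alleles) and wild-type. Both genotypes were injected with 5 doses of 10 µg pIpC, an interferon inducer that switches on Mx1-cre, and marrow was taken 10 days after the last dose. Mx1-cre acts in all interferon-responsive cells and is not restricted to HSCs, and the wild-type mice are not stated to carry the Cre. From each sample 3000 Lineage-, Sca1+, cKit+, CD150+, CD48- cells were sorted. Their polyadenylated RNA was divided with 1.25 µg of an antibody against m6A into an m6A-tagged (eluted) fraction and an unbound fraction (the pooled washes), and part was kept as input. Each of the 6 groups, Mettl3-deficient m6A-tagged, unbound and input and wild-type m6A-tagged, unbound and input, had 3 libraries, 18 in all, which the study calls biological replicates. No fragmentation of the RNA is described in the labels, so a value stands for a whole gene and not for a methylated site.

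Every value below is the authors' mean RPKM of the 3 libraries of a group. The spread between libraries is not visible in such a mean, so no difference has a replicate check, no test across libraries was possible, and a mean that rests on 1 library cannot be recognised. Depth, worked out from the values, was 9.42 to 33.6 M reads per library in Mettl3-deficient cells and 24.3 to 37.2 M in wild-type cells, so that 10 RPKM stands for 94.2 to 372 reads per kilobase. Mettl3 itself was at 17.4, 11.2 and 19.6 RPKM in Mettl3-deficient m6A-tagged, unbound and input RNA, against 36.1, 33.2 and 36.4 RPKM in the wild-type fractions, a check of the labels in part, since undeleted exons are still counted. The 10 HSC markers, 7 of which reached 10 RPKM, summed to 842 to 1168 RPKM in Mettl3-deficient and 768 to 1032 RPKM in wild-type fractions. Other lineages were visible too. The 10 granulocyte and monocyte markers summed to 1577 to 2929 RPKM in Mettl3-deficient fractions, against 7397 to 10391 RPKM in wild-type fractions, and 5 eosinophil markers to 7.13 to 25.9 RPKM, against 829.8 to 1217 RPKM. The sums in Mettl3-deficient and wild-type fractions were 1008 to 1253 and 1163 to 1600 RPKM for erythroid markers, 266 to 446 and 609 to 999 RPKM for megakaryocyte markers, 55.0 to 230.4 and 157 to 389.7 RPKM for T and NK cell markers and 91.5 to 139 and 26.6 to 156 RPKM for B cell markers. Cd48, absent from the sorted phenotype, was at 3.69 to 7.24 RPKM in Mettl3-deficient and 11.1 to 28.1 RPKM in wild-type fractions. Fewer cells of a type and less RNA per cell cannot be told apart in such samples.

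The 76 genes held 20 mitochondrial carriers of 44 listed in the tables, 13 amino acid and peptide carriers of 65, 8 zinc carriers of 24, 8 carriers of lipids, choline and organic solutes of 59, and 7 sugar carriers of 32. The other 20 were carriers of iron, copper, magnesium or haem (4), inorganic ions (3), nucleotide sugars (3), nucleosides (2), monocarboxylates (2), vitamins (2) and phosphate (1), with the 3 genes that are not transporters. These classes follow the family number, so that Slc43a3, known as a purine nucleobase transporter, counts with the amino acids and Slc14a1, a urea transporter, with the organic solutes. The 76 genes took 0.977%, 1.05% and 1.02% of the summed RPKM in Mettl3-deficient m6A-tagged, unbound and input RNA, against 0.899%, 0.732% and 0.828% in the wild-type fractions. The lowest share was in wild-type unbound RNA.

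Carriers of the inner mitochondrial membrane headed the list. Slc25a5, which exchanges ADP for ATP, was at 419, 1509 and 761 RPKM in Mettl3-deficient m6A-tagged, unbound and input RNA, against 411, 649 and 442 RPKM in the wild-type fractions. Its unbound value was the highest of the 3 in both genotypes, and the m6A-tagged values of the genotypes lay side by side. Slc25a4, the close relative of Slc25a5, was at 193, 466 and 219 RPKM in Mettl3-deficient m6A-tagged, unbound and input RNA, against 219, 198 and 159 RPKM in wild-type. Reads shared by such near-identical genes and their copies could be split between them in counting, so their separate levels are uncertain. By mean level Slc25a39, which imports glutathione into mitochondria, and Slc50a1, a sugar exporter, ranked between Slc25a5 and Slc25a4. Below Slc25a4 came the phosphate carrier Slc25a3, the citrate carrier Slc25a1 and the oxoglutarate carrier Slc25a11. Outside family 25, Slc3a2, the heavy chain that brings amino acid carriers such as Slc7a5 to the surface, was at 181, 243 and 169.6 RPKM in Mettl3-deficient m6A-tagged, unbound and input RNA, against 151, 163 and 109.6 RPKM in wild-type. Its partner Slc7a5 was among the lower genes and is described with the inputs.

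**Figure D1:**
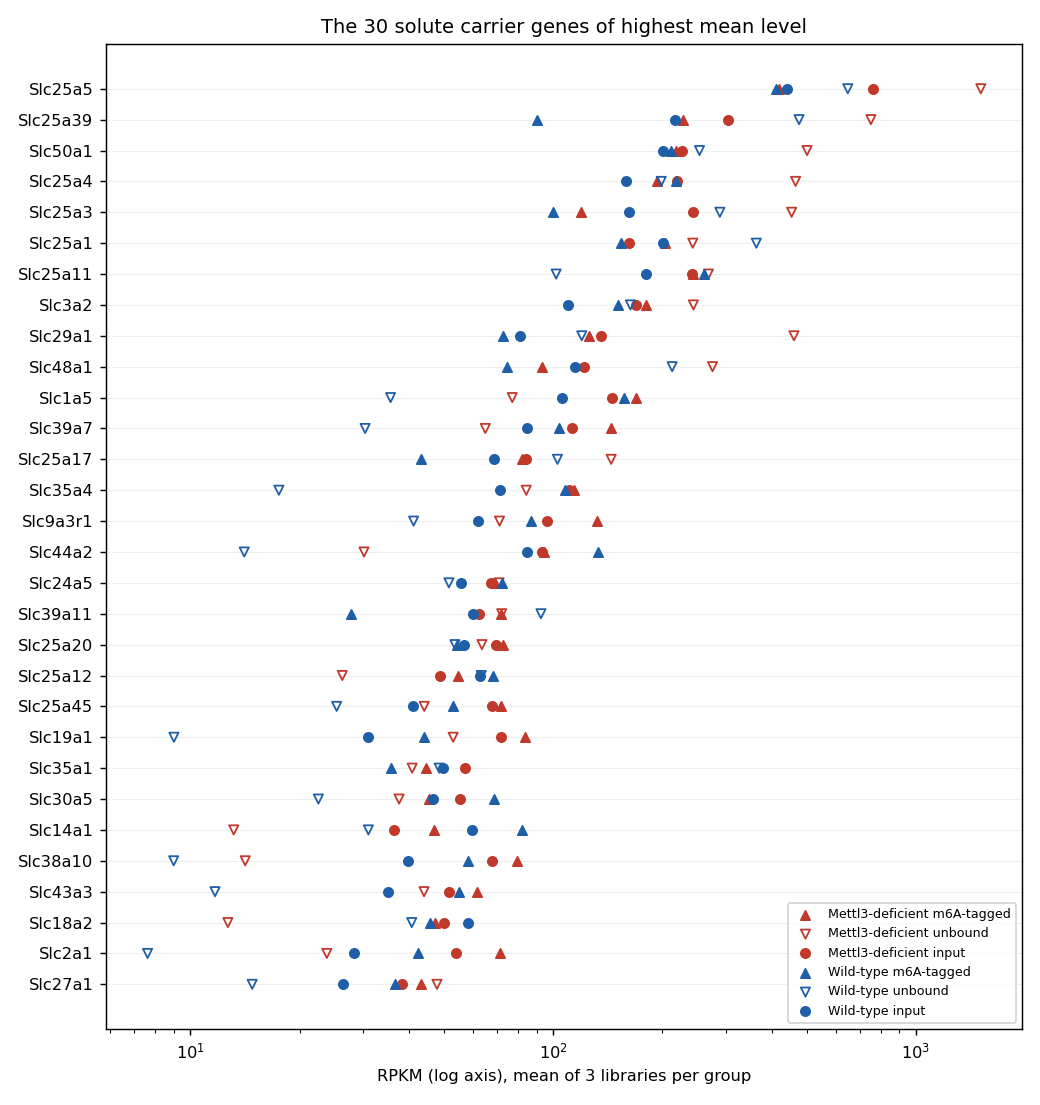
RPKM on a log axis of the 30 solute carrier genes of highest mean level, ordered from the top by mean; red marks are Mettl3-deficient and blue marks wild-type groups, filled upward triangles m6A-tagged, open downward triangles unbound and circles input, each the mean of 3 libraries. The open triangles of Slc25a5, at 1509 and 649 RPKM, and of Slc25a39 and Slc25a3 lie to the right of the other marks of the same colour, those of Slc44a2 and Slc2a1 to the left, and for Slc25a4 and Slc25a11 the blue open triangle (198 and 102 RPKM) does not lie to the right.

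Slc2a1 and Slc22a3 differed in opposite directions between the inputs, Slc2a1 by less than 2-fold. Slc16a1 and Slc25a5 lay on opposite sides of the m6A-tagged to unbound comparison. Start-site sequences of these 4 genes are shown as examples. Each is the 250 bases before the annotated transcription start, 5′ to 3′ on the gene's strand, from RefSeq on GRCm38.p6 (mm10): chr4:119108495-119108744 on the plus strand, chr17:12507705-12507954 on the minus strand, chr3:104638414-104638663 on the plus strand and chrX:36795347-36795596 on the plus strand, in the order below. Capitals mark the E-box CACGTG, bound by MYC, USF and other helix-loop-helix proteins, and the GC box GGGCGG or its complement CCGCCC, bound by SP proteins.
Slc2a1: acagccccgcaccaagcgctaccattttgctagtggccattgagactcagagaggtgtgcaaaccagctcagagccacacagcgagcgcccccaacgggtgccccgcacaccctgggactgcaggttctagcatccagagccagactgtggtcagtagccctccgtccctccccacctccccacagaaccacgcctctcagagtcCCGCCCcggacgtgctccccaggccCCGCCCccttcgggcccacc
Slc22a3: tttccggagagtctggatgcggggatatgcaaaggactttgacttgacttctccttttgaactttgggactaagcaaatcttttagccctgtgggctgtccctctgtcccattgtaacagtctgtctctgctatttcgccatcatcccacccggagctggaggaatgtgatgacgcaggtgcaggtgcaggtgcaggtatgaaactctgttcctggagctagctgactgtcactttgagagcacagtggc
Slc16a1: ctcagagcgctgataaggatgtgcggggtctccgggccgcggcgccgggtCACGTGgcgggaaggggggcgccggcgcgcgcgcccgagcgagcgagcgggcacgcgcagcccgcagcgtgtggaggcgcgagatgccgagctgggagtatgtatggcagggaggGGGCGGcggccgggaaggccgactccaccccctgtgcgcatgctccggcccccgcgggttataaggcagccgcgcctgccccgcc
Slc25a5: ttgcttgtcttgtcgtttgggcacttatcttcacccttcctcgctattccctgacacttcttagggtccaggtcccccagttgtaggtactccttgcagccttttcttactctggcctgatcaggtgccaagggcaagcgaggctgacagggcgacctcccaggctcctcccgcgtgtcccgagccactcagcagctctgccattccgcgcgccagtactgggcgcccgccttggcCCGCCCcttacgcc
Slc2a1 had 2 GC boxes and Slc22a3 had neither motif, while Slc16a1 had 1 E-box and 1 GC box and Slc25a5 had 1 GC box. Both motifs were searched on both strands, and neighbouring matches may share a base. RefSeq promoters were at hand for 56 of the 76 genes. An E-box lay in the window of 11 of them (19.6%), against 10.6% of 5100 genes of at least 10 RPKM and 6.86% of all 27025 genes with a promoter. A GC box lay in 42 (75%), against 63.7% and 35.4%. These are matches of letters, and no binding was measured.

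Between the inputs most solute carriers differed little by genotype. Of the 76 genes, 1 was at least 2-fold higher in Mettl3-deficient than in wild-type input (2.38% of all genes compared) and 2 were at least 2-fold lower (6.67%, and 9.05% in either direction). The median difference was 0.14 on the log2 scale, against -0.05 over all genes, and 46 of the 76 lay above 0. Median-ratio scaling gave 1 higher and 1 lower, and an upper quartile over genes of at least 1 RPKM 2 higher and 1 lower. Ratios here and below are log2((RPKM + 1)/(RPKM + 1)), which understates differences of low genes. The lineage markers given above also differed between these inputs, and their part in the differences was not tested.

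The lowest was Slc7a5 (gene 20539, chromosome 8, 121881146 to 121907686), a carrier of large neutral amino acids such as leucine. It was at 9.48, 4.65 and 4.26 RPKM in Mettl3-deficient m6A-tagged, unbound and input RNA, against 40.6, 5.40 and 26.7 RPKM in wild-type. Slc7a5 thus reached the minimum of 10 RPKM only through wild-type m6A-tagged and input RNA, which ties its low place to the rule. The input difference was -2.39 and the m6A-tagged difference -1.99, while the unbound values were near each other. Slc22a3 (chromosome 17, 12419972 to 12507704), a carrier of organic cations including monoamines, was at 17.2, 10.1 and 17.3 RPKM in Mettl3-deficient m6A-tagged, unbound and input RNA, against 53.1, 4.23 and 37.2 RPKM in wild-type. Its difference was -1.06 in input and -1.57 in m6A-tagged RNA, against 1.09 in unbound RNA, and median-ratio scaling brought the input difference to -0.998, just under 2-fold. No other of the 76 was 2-fold lower in both input and m6A-tagged RNA.

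The highest was Slc19a1 (chromosome 10, 77032269 to 77050432), the reduced folate carrier. It was at 83.6, 53.0 and 71.8 RPKM in Mettl3-deficient m6A-tagged, unbound and input RNA, against 44.1, 9.01 and 30.8 RPKM in wild-type. All 3 fractions were higher in Mettl3-deficient cells, by 0.91, 2.43 and 1.19. Slc2a1 (chromosome 4, 119108745 to 119137330), the widespread glucose transporter, had 71.2, 23.8 and 53.8 RPKM in Mettl3-deficient m6A-tagged, unbound and input RNA, against 42.3, 7.62 and 28.3 RPKM in wild-type. Its input difference of 0.90 stayed under 2-fold. The second glucose transporter, Slc2a3, was at 37.5 RPKM in Mettl3-deficient and 37.99 RPKM in wild-type input. Slc30a6, a zinc carrier of the secretory pathway, had an input difference of 0.94, and Slc39a1, a zinc importer, one of -0.88.

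**Figure D2:**
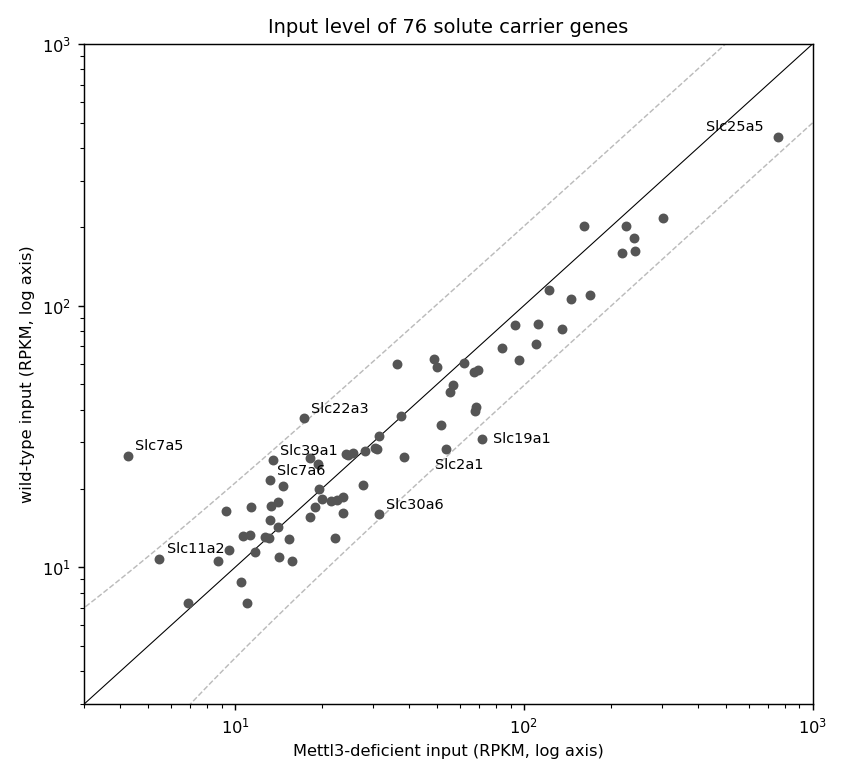
Input RPKM of the 76 genes in Mettl3-deficient (horizontal) and wild-type cells (vertical), both log axes; the solid line marks equal levels and the dashed lines a 2-fold difference of RPKM + 1. Slc7a5 and Slc22a3 lie above the upper dashed line and Slc19a1 below the lower one.

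Of the 13 amino acid and peptide carriers that reached the minimum, only Slc7a5 was 2-fold lower in input. Slc38a5, an amino acid carrier just under the minimum, was lower too, at 1.10 RPKM in Mettl3-deficient and 10.7 RPKM in wild-type input. Slc1a5, a glutamine carrier, was at 169.6, 77.1 and 145 RPKM in Mettl3-deficient m6A-tagged, unbound and input RNA, against 157, 35.6 and 106 RPKM in wild-type, and Slc3a2 had an input difference of 0.62. Slc38a2, a carrier of small neutral amino acids that rises when amino acids are short, was at 31.7, 3.84 and 31.4 RPKM in Mettl3-deficient m6A-tagged, unbound and input RNA, against 30.9, 4.33 and 31.7 RPKM in wild-type. Each of its fractions had nearly the same level in both genotypes. Slc7a6, which also pairs with Slc3a2, had an input difference of -0.66. Over the 13 amino acid and peptide carriers 1 was 2-fold lower and 0 were 2-fold higher in input, with a median of 0.14. The 20 mitochondrial carriers had 0 in either direction, a median of 0.22 and a range of -0.36 for Slc25a12 to 0.78 for Slc25a5.

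Between m6A-tagged RNA and input few solute carriers stood apart. In Mettl3-deficient cells 0 of the 76 were 2-fold higher in m6A-tagged RNA (1.37% of all genes) and 1 was 2-fold lower (1.45%, and 2.81% in either direction). The median was 0.06, against 0.12 over all genes. It changed sign when the columns were rescaled, to -0.06 with the median-ratio and -0.05 with the upper-quartile factors. Of all genes past 2-fold 48.6% were higher, or 28.2% after median-ratio scaling and 29.8% after upper-quartile scaling. The phosphate carrier Slc25a3 was the gene that was lower, at 119.6, 454 and 243 RPKM in Mettl3-deficient m6A-tagged, unbound and input RNA, a ratio of -1.02 to input, or -0.99 with an added 5 RPKM. In wild-type cells it was at 99.6, 288 and 162 RPKM in the same fractions, a ratio of -0.69. Slc7a5 was the highest with an added 1 RPKM, at 0.99 in Mettl3-deficient and 0.59 in wild-type HSCs, and Slc17a9 with an added 5 RPKM.

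In wild-type cells 1 of the 76 was 2-fold higher in m6A-tagged RNA than in input (3.69% of all genes) and 4 were 2-fold lower (5.23%, and 8.91% in either direction). The median was 0.25, against 0.06 over all genes. Of all genes past 2-fold 41.4% were higher, or 30.5% after median-ratio scaling. Slc16a13, of the monocarboxylate carrier family, was the higher one, at 25.3 RPKM in m6A-tagged RNA and 10.99 RPKM in input. The lower ones were Slc25a14 (-2.04), an uncoupling-protein relative, Slc11a2 (-1.50), which carries ferrous iron, Slc25a39 (-1.26) and the zinc carrier Slc39a11 (-1.09). These 4 were picked by their wild-type ratios, so that their low wild-type values are fixed by the choice. Their Mettl3-deficient ratios were -0.32, 0.12, -0.41 and 0.20 in the same order. Genes picked as extremes of 1 genotype tend to lie nearer 0 in the other, so these values cannot show a genotype effect. Over all genes the standard deviation of the ratio was also smaller for Mettl3-deficient HSCs, at 0.44, against 0.60 for wild-type HSCs.

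The genotype difference, the Mettl3-deficient minus the wild-type log2 ratio, was at least 2-fold higher for 5 of the 76 in m6A-tagged over input (7.31% of all genes) and at least 2-fold lower for 1 (2.91%, and 10.2% in either direction). The median was -0.14, against 0.04 over all genes. Of all genes past 2-fold 71.5% were higher, or 54.8% after upper-quartile scaling, while the 76 gave 5 and 1 under each scaling run. The genes that were higher were Slc25a14 (1.72), Slc11a2 (1.62), Slc22a18 (1.43), a putative organic cation carrier of an imprinted region, Slc39a11 (1.30) and Slc4a2 (1.13), an exchanger of chloride and bicarbonate. Slc30a7, which loads zinc into the Golgi, was the one that was lower (-1.31), at 7.38, 11.2 and 10.5 RPKM in Mettl3-deficient m6A-tagged, unbound and input RNA, against 16.7, 6.77 and 8.77 RPKM in wild-type. Without its wild-type m6A-tagged value Slc30a7 would average under the minimum, so this low difference is tied to the rule. Slc22a18 was at 42.7, 62.9 and 22.6 RPKM in Mettl3-deficient m6A-tagged, unbound and input RNA, against 12.1, 35.3 and 18.1 RPKM in wild-type. It was thus above input in the m6A-tagged RNA of Mettl3-deficient cells and below input in that of wild-type cells. Among m6A-tagged columns alone, 4 of the 76 were 2-fold higher in Mettl3-deficient cells (6.02% of all genes) and 5 were 2-fold lower (7.15%).

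Set against the unbound fraction, m6A-tagged RNA differed for far more of these genes. In Mettl3-deficient cells 23 of the 76 exceeded the unbound level at least 2-fold in m6A-tagged RNA (33.7% of all genes) and 11 fell at least 2-fold short of it (16.9%, and 50.6% in either direction). The median was 0.31, against 0.33 over all genes. The 23 made up 67.6% of the members past 2-fold, or 56.3% after median-ratio scaling; for all genes these were 66.7% and 54.6% (54.1% with an upper quartile over genes of at least 1 RPKM). In wild-type cells 38 were at least 2-fold higher (31.5% of all genes) and 12 at least 2-fold lower (19.3%, and 50.8% in either direction), with a median of 0.99, against 0.12 over all genes. Thus 30.3% of the 76 were higher and 14.5% lower in Mettl3-deficient cells, near the shares of all genes, and 50.0% and 15.8% in wild-type cells. Median-ratio scaling moved the median of all genes to 0.05 in Mettl3-deficient and -0.01 in wild-type HSCs, and that of the 76 to 0.02 and 0.86. Upper-quartile scaling, with the quartile taken over the genes of at least 10 RPKM, moved the medians of all genes to 0.49 and 0.33 and those of the 76 to 0.46 and 1.19. With the quartile over genes of at least 1 RPKM, tried after the data were seen, they came to 0.04 and -0.07 for all genes and 0.01 and 0.80 for the 76, so the direction of that shift depends on the genes taken.

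The ratios of the genotypes went together across the 76 genes, with a Spearman correlation of 0.57, against 0.58 across all genes. These are descriptions across genes, which are not replicates, and both ratios share gene length and protocol. In both genotypes 14 of the 76 were 2-fold higher in m6A-tagged than unbound RNA, which is 60.9% of the 23 in Mettl3-deficient and 36.8% of the 38 in wild-type cells. For all genes these shares were 54.5% and 58.3%. The 14 were 18.4% of the 76, and 18.4% of all genes did the same. They were Slc38a2, Slc38a10, Slc38a1, Slc1a5, Slc16a1, Slc2a1, Slc37a1, Slc44a2, Slc14a1, Slc39a7, Slc20a2, Slc25a24, Slc25a46 and Slc7a6os. Slc38a1, Slc20a2 and Slc7a6os among the 14 averaged under the minimum without their m6A-tagged values, which ties their place to the rule. In both genotypes 6 were 2-fold lower, namely Slc25a14, Slc25a39, Slc25a3, Slc48a1, Slc41a3 and Slc11a2, which is 54.5% of 11 in Mettl3-deficient and 50.0% of 12 in wild-type cells, beside 54.7% and 47.6% for all genes. The 6 were 7.89% of the 76, against 9.21% of all genes. Slc25a14, Slc41a3 and Slc11a2 among them passed the minimum only through their unbound values, which ties their place to the rule.

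**Figure D3:**
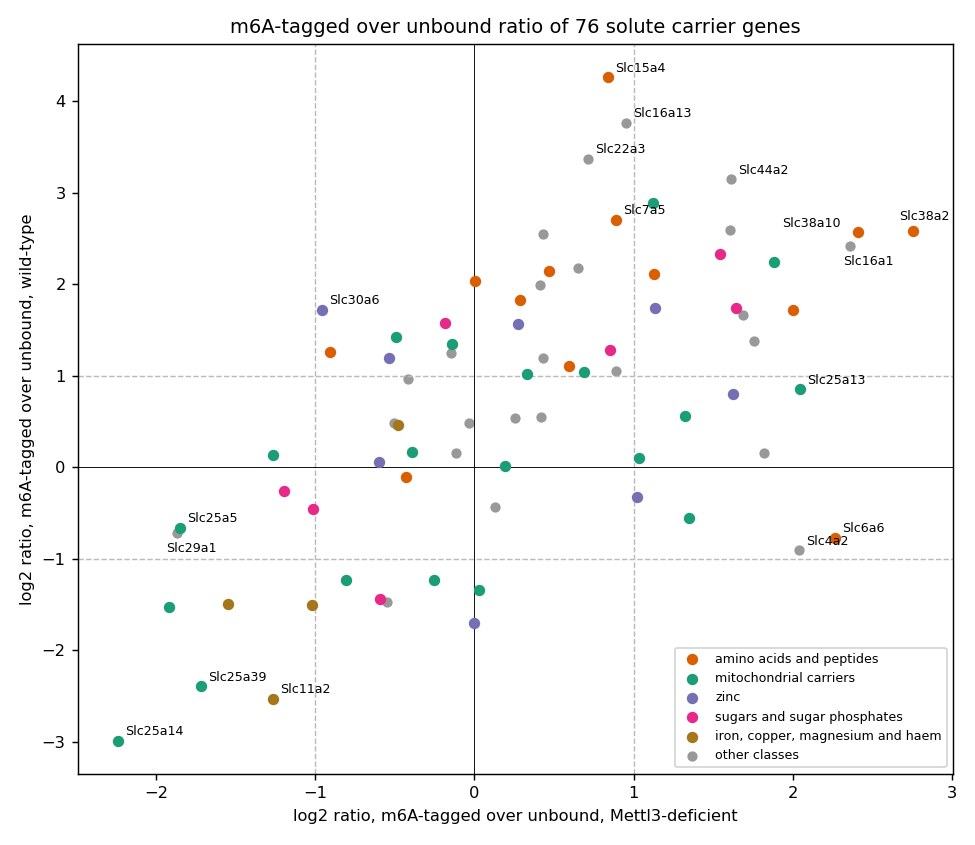
Log2 ratio of m6A-tagged over unbound RNA of the 76 genes in Mettl3-deficient (horizontal) and wild-type cells (vertical), coloured by transported substrate; dashed lines mark 2-fold. Amino acid carriers such as Slc38a2 and Slc15a4 lie in the upper part, Slc25a14, Slc25a39 and Slc11a2 at the lower left, and Slc6a6 and Slc4a2 to the right but below 0 in wild-type cells.

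Beside the counts by class below stand the shares of all genes past 2-fold, 33.7% upward and 16.9% downward in Mettl3-deficient HSCs and 31.5% and 19.3% in wild-type HSCs. Of 13 amino acid carriers, 5 (38.5%, near the share of all genes) exceeded unbound RNA 2-fold in m6A-tagged RNA in Mettl3-deficient cells and 11 (84.6%) in wild-type cells, and 0 were 2-fold lower in either, with medians of 0.84 in Mettl3-deficient and 2.04 in wild-type HSCs. Slc38a2 (chromosome 15, 96687392 to 96699728) had ratios of 2.76 in Mettl3-deficient and 2.58 in wild-type HSCs. Its relatives Slc38a1 and Slc38a10 had 2.00 and 2.41 in Mettl3-deficient and 1.72 and 2.57 in wild-type cells. Slc38a1 passed the minimum only with its m6A-tagged values, so its place is tied to the rule. In all 3 family 38 genes the unbound level was the lowest of the fractions, for Slc38a10 79.7, 14.2 and 67.9 RPKM in Mettl3-deficient m6A-tagged, unbound and input RNA and 58.2, 8.996 and 39.7 RPKM in wild-type. Slc1a5 had a ratio of 1.13 in Mettl3-deficient and 2.11 in wild-type HSCs. Below 0 were Slc3a2, at -0.43 in Mettl3-deficient and -0.11 in wild-type HSCs, Slc7a7 in Mettl3-deficient cells (-0.91, against 1.25 in wild-type) and Slc6a6, with 2.27 in Mettl3-deficient HSCs against -0.77 in wild-type HSCs.

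The lactate and pyruvate carrier Slc16a1 (chromosome 3, 104638664 to 104658462) was at 17.2, 2.54 and 21.5 RPKM in Mettl3-deficient m6A-tagged, unbound and input RNA, against 21.8, 3.25 and 18.0 RPKM in wild-type. Its m6A-tagged to unbound ratio came to 2.36 in Mettl3-deficient HSCs and 2.42 in wild-type HSCs, so that its fractions differed alike in both. Slc44a2, a choline transporter-like protein, was at 94.2, 30.1 and 93.2 RPKM in Mettl3-deficient m6A-tagged, unbound and input RNA, against 133, 14.1 and 84.6 RPKM in wild-type, with ratios of 1.61 and 3.15. The 7 sugar carriers split into 2 higher and 2 lower ones past 2-fold in Mettl3-deficient cells (28.6% each), and 4 (57.1%) and 1 (14.3%) in wild-type cells. Slc2a1 had ratios of 1.54 in Mettl3-deficient and 2.33 in wild-type HSCs, whereas Slc50a1 had -1.19 and -0.26 and Slc37a4, which brings glucose 6-phosphate into the endoplasmic reticulum, -0.59 and -1.44.

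Mitochondrial carriers were spread on both sides. Among 20 genes, 6 (30%) were past 2-fold upward and 5 (25%) downward in Mettl3-deficient cells, with a median of -0.06, and 6 higher and 6 lower (30% each) in wild-type cells, with a median of 0.12. Slc25a39 (chromosome 11, 102402969 to 102408675) was at 228, 751 and 303 RPKM in Mettl3-deficient m6A-tagged, unbound and input RNA, against 90.03, 476 and 217 RPKM in wild-type, with ratios of -1.72 and -2.39. Slc25a14 (chromosome X, 48623418 to 48662298) was the lowest of the 76 in both genotypes with an added 1 or 0.1 RPKM, at 5.29, 28.7 and 6.85 RPKM in Mettl3-deficient m6A-tagged, unbound and input RNA, against 1.02, 14.998 and 7.33 RPKM in wild-type. Its ratios were -2.24 and -2.98. With an added 5 RPKM they came to -1.71 and -1.73, and others were lower, Slc25a3 (-1.88) and Slc29a1 (-1.84) in Mettl3-deficient cells and Slc25a39 (-2.34) and Slc11a2 (-1.78) in wild-type cells. Its m6A-tagged and input values were all under 10 RPKM and it passed the minimum through unbound RNA, so that its low ratio is tied to the rule. At the other end stood the aspartate and glutamate carrier Slc25a13, with 2.04 in Mettl3-deficient and 0.85 in wild-type HSCs, and Slc25a46, an outer membrane protein, with 1.12 and 2.88.

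Of the 4 metal carriers other than those of zinc, 3 were at least 2-fold lower in each genotype and 0 higher. Slc11a2 and Slc41a3, 2 of the 3, reached the minimum of 10 RPKM only through their unbound values, which ties their place to the rule, so this count is a description that supports nothing about the class. In Mettl3-deficient cells Slc41a3, a magnesium carrier, was only just among them, at -1.02, or -0.87 after upper-quartile scaling, and an added 5 RPKM brought Slc11a2 to -0.92. Slc11a2 (chromosome 15, 100387898 to 100424209) was at 6.02, 15.9 and 5.47 RPKM in Mettl3-deficient m6A-tagged, unbound and input RNA, against 3.16, 22.97 and 10.8 RPKM in wild-type. Slc48a1, a haem transporter of lysosomes, was at 93.2, 275 and 122 RPKM in Mettl3-deficient m6A-tagged, unbound and input RNA, against 74.8, 213 and 115 RPKM in wild-type. The unbound value of both genes was the highest of the 3 fractions in each genotype. The copper importer Slc31a1, the other gene with Slc41a3 in this class, had ratios of -0.48 in Mettl3-deficient and 0.46 in wild-type HSCs. Among the 8 zinc carriers, 3 (37.5%) were past 2-fold upward and 0 downward in Mettl3-deficient cells, and 4 (50%) higher and 1 (12.5%) lower in wild-type cells. Slc30a7, among those 4, passed the minimum only with its wild-type m6A-tagged value.

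**Figure D4:**
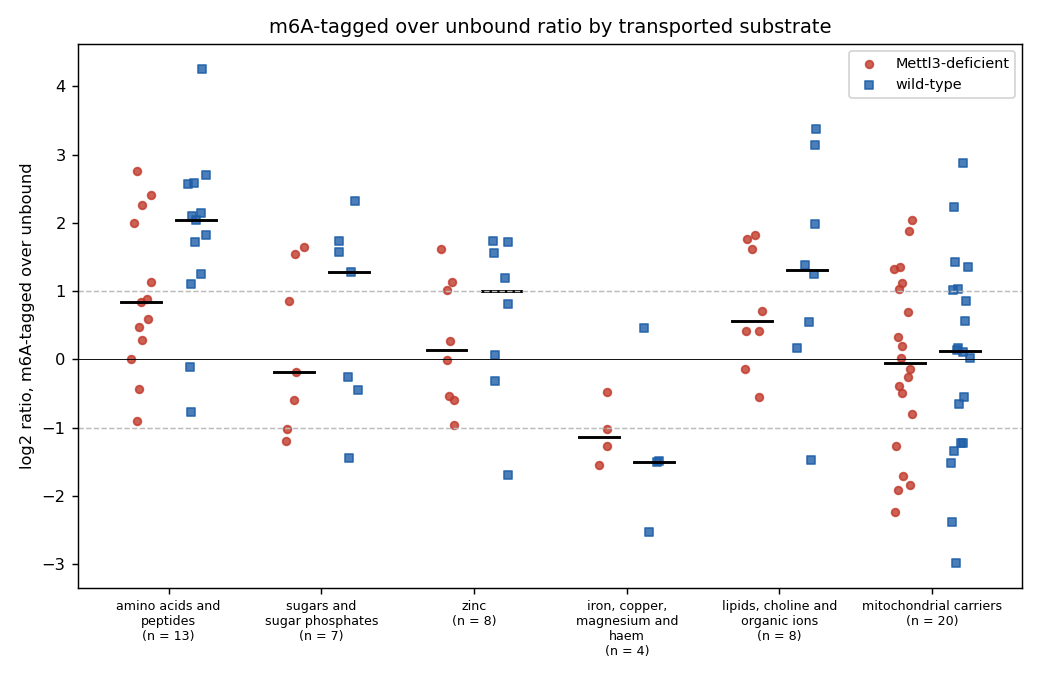
Log2 ratio of m6A-tagged over unbound RNA for the 6 largest substrate classes, Mettl3-deficient as red circles and wild-type as blue squares, each point a gene and each bar the class median; dashed lines mark 2-fold. The bar of the amino acid and peptide carriers lies at 0.84 in Mettl3-deficient and 2.04 in wild-type HSCs, and that of the 4 iron, copper, magnesium and haem carriers lies below -1 in both.

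The m6A-tagged to unbound ratio of the solute carriers was more often lower than higher in Mettl3-deficient HSCs, set against wild-type. Among the 76, 24 were at least 2-fold lower (22.8% of all genes) and 9 at least 2-fold higher (23.7%, and 46.5% in either direction), which is 31.6% and 11.8% of the 76, with a median of -0.47, against -0.01 over all genes. Median-ratio scaling gave 29 lower and 9 higher, with medians of -0.62 for the 76 and -0.16 for all genes. Much of this lay in the unbound columns. Between genotypes 25 of the 76 were at least 2-fold higher in Mettl3-deficient unbound RNA (19.7% of all genes) and 8 at least 2-fold lower (22.7%), with a median of 0.59, against 0.02. Their summed level was 7001 RPKM in Mettl3-deficient and 4163 RPKM in wild-type unbound RNA, beside 4539 and 4111 RPKM in m6A-tagged RNA. Mitochondrial carriers held 4139 and 2471 RPKM of these unbound sums, although the median genotype difference of their m6A-tagged to unbound ratio was -0.08. Over all 6295 genes compared the unbound sums were 653573 and 553817 RPKM. The unbound libraries held 12.2 to 27.3 M reads each in Mettl3-deficient cells, against 24.3 to 27.4 M in wild-type cells, and the part of depth was not tested.

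Slc15a4 (chromosome 5, 127594545 to 127633292), a lysosomal carrier of histidine and peptides that acts in innate immune signalling, had the lowest difference with an added 1 RPKM, -3.42. It was at 18.9, 10.1 and 23.7 RPKM in Mettl3-deficient m6A-tagged, unbound and input RNA, against 20.7, 0.133 and 16.1 RPKM in wild-type. Its wild-type unbound value was far below the other 5, which ran from 10.1 to 23.7 RPKM, and the difference depends on the amount added to it. The difference was -5.58 with an added 0.1 RPKM and -1.66 with 5 RPKM, where Slc30a6 (-2.16) and Slc22a3 (-2.10) were lower. Slc16a13 (-2.81, or -3.61 and -1.59 with 0.1 and 5 RPKM) also had its lowest value in wild-type unbound RNA, at 21.95, 10.8 and 14.2 RPKM in Mettl3-deficient m6A-tagged, unbound and input RNA, against 25.3, 0.937 and 10.99 RPKM in wild-type. Slc30a6 (-2.68) and Slc22a3 (-2.66) followed, Slc30a6 at 24.5, 48.6 and 31.5 RPKM in Mettl3-deficient m6A-tagged, unbound and input RNA and 21.6, 5.86 and 15.97 RPKM in wild-type. Next were Slc7a7 (-2.16), Slc35a4 (-2.12), Slc7a4 (-2.03), Slc25a33 (-1.92), Slc7a5 (-1.81) and Slc5a2 (-1.76), 3 of them of the amino acid carrier family 7.

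Slc6a6 (chromosome 6, 91684048 to 91759063), the taurine transporter, had the highest difference, 3.04. It was at 19.9, 3.35 and 20.0 RPKM in Mettl3-deficient m6A-tagged, unbound and input RNA, against 14.4, 25.3 and 18.2 RPKM in wild-type. Slc4a2 (2.95) had 14.7, 2.82 and 11.3 RPKM in Mettl3-deficient m6A-tagged, unbound and input RNA, against 9.49, 18.7 and 16.99 RPKM in wild-type. Both had a low unbound value in Mettl3-deficient and a high one in wild-type cells, while their input differed by less than 2-fold. The others that were higher were Slc25a38 (1.90), which brings glycine into mitochondria for haem synthesis, Slc39a11 (1.70), Slc18a2 (1.66), the vesicular monoamine transporter, Slc25a22 (1.36), a glutamate carrier, Slc39a13 (1.34), Slc11a2 (1.26) and Slc25a13 (1.19). None of the 76 was 2-fold lower in Mettl3-deficient and 2-fold higher in wild-type cells (0.620% of all genes), and none the opposite (1.35%).

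Slc29a1, the nucleoside transporter through which adenosine and nucleoside drugs enter cells, was at 125, 461 and 136 RPKM in Mettl3-deficient m6A-tagged, unbound and input RNA, against 72.8, 119.9 and 81.2 RPKM in wild-type. Its Mettl3-deficient unbound value stood apart from the other 5, and its m6A-tagged to unbound ratio came to -1.87 in Mettl3-deficient HSCs and -0.71 in wild-type HSCs. The unbound value of Slc43a3 was instead the lowest fraction in each genotype, with 61.5, 44.1 and 51.5 RPKM in Mettl3-deficient m6A-tagged, unbound and input RNA and 55.0, 11.7 and 34.96 RPKM in wild-type. In both genes the unbound level was higher in Mettl3-deficient cells, by 1.93 for Slc29a1 and 1.83 for Slc43a3. Of the 76, 16 (21.1%) had their highest value in unbound RNA in both genotypes, against 27.3% of all genes, and 32 (42.1%) their lowest, against 35.5%. Set against input, unbound RNA was at least 2-fold higher for 10 and 2-fold lower for 20 of the 76 in Mettl3-deficient cells (18.5% and 29.5% of all genes). In wild-type cells it was higher for 3 and lower for 32 (4.61% and 25.5%).

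Other transporter families were set beside the solute carriers. ABC genes encode mostly ATP-driven pumps, but Abce1, Abcf1, Abcf2 and Abcf3 encode no membrane transporter and are kept in the counts. Their Mettl3-deficient m6A-tagged to unbound ratios were 1.82, 3.10, 1.84 and 1.79. Of 14 ABC genes, 12 (85.7%, against 33.7% of all genes), these among them, exceeded unbound RNA 2-fold in m6A-tagged RNA in Mettl3-deficient cells. Of the 14, 0 fell 2-fold short of it, with a median of 1.83. In wild-type cells 5 (35.7%, against 31.5%) were higher and 2 (14.3%, against 19.3%) lower, with a median of 0.21. Abca2, the ABC gene with the highest Mettl3-deficient ratio, was at 23.5, 1.52 and 10.8 RPKM in Mettl3-deficient m6A-tagged, unbound and input RNA, against 18.5, 24.7 and 25.6 RPKM in wild-type. Of 7 P-type ATPase genes, ion and lipid pumps and a subunit, 6 (85.7%) were higher in Mettl3-deficient cells (median 1.72), and 1 was higher and 1 lower (14.3% each) in wild-type cells (median -0.12). The genotype difference thus had a median of 1.39 for ABC and 1.88 for P-type genes, beside -0.47 for the solute carriers. These lists were chosen with results of these columns known, and the differences between them were not tested.

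Of 11 atypical solute carriers named outside the Slc pattern, 3 (27.3%) were past 2-fold upward and 2 (18.2%) downward in Mettl3-deficient cells (median -0.27), and 4 (36.4%) higher and 3 (27.3%) lower in wild-type cells (median 0.09). Of 8 partners and regulators of solute carriers, 2 were higher and 2 lower (25% each) in Mettl3-deficient cells and 2 (25%) higher and 1 (12.5%) lower in wild-type cells, with medians of -0.16 and -0.29. Sesn2, a stress-induced regulator of amino acid sensing, was the highest of these in both genotypes, at 2.55 and 2.04. Bsg, which escorts the lactate carriers to the surface, was the lowest in wild-type cells, at -1.71, where its client Slc16a1 stood at 2.42.

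**Figure D5:**
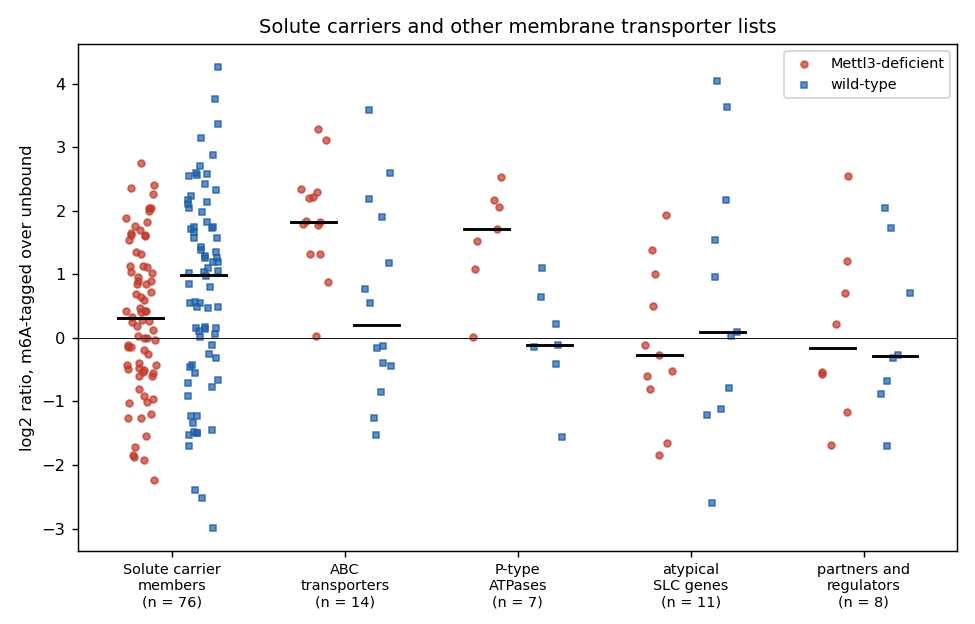
Log2 ratio of m6A-tagged over unbound RNA for the 76 solute carrier genes, 14 ABC genes (Abce1, Abcf1, Abcf2 and Abcf3 among them are not membrane transporters), 7 P-type ATPases, 11 atypical SLC genes and 8 partners and regulators, Mettl3-deficient as red circles and wild-type as blue squares, bars at the medians. The bars of the ABC and P-type lists lie at 1.83 and 1.72 in Mettl3-deficient cells and at 0.21 and -0.12 in wild-type cells.

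Genomic span moved with the m6A-tagged to unbound ratio in Mettl3-deficient cells, and only weakly in wild-type cells. The 76 genes had a median span of 20.2 kb, against 15.996 kb for all genes compared. The 38 longer genes had a median ratio of 0.65 in Mettl3-deficient and 1.22 in wild-type HSCs, and the 38 shorter ones -0.06 and 0.51. The Spearman correlation of span and ratio across the 76 came to 0.36 in Mettl3-deficient HSCs and 0.16 in wild-type HSCs, beside 0.41 and 0.09 across all genes. Amino acid carriers had a median span of 26.5 kb, mitochondrial carriers 14.9 kb, sugar carriers 9.10 kb, and the metal carriers other than zinc 33.7 kb. ABC genes had 20.9 kb and P-type genes 31.8 kb. The part of gene length in the class differences was not tested.

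The minimum decided which genes were counted, and a gene could pass it through 1 high column. All 6 columns reached 10 RPKM in 40 of the 76, both inputs did in 68, and 5 had a mean of the inputs under 10 RPKM. Just inside the minimum were Slc25a36 (10.1 RPKM on average), Slc5a2 (10.1 RPKM) and Slc30a7 (10.2 RPKM), and just outside Slc6a15 (9.65 RPKM), Slc38a5 (9.61 RPKM) and Slc9a8 (9.40 RPKM). Slc38a5 was at 0.380, 2.53 and 1.10 RPKM in Mettl3-deficient m6A-tagged, unbound and input RNA, against 7.14, 35.9 and 10.7 RPKM in wild-type. Of the 262 Slc-named genes under the minimum, 33 reached 10 RPKM in at least 1 column and 170 averaged under 1 RPKM. Among those under it were well-known carriers, the cystine carrier Slc7a11, the lactate exporter Slc16a3, the iron exporter Slc40a1 and the mitochondrial iron importer Slc25a37. All 76 had a RefSeq entry, 30 overlapped another annotated gene and 11 of these a protein-coding gene, Slc15a4, Slc35a4, Slc48a1, Slc39a11 and Slc7a7 among them. Strand is not given for the counting in the sources used here, so reads of overlapping genes cannot be told apart.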

How the data were processed

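The authors deposited 1 table per genotype with an RPKM column for each fraction, and the submitters' processing notes name the build mm10, Picard and edgeR without giving their roles. Aligner, counting tool and strand setting are not given in these sources. From the values, each deposited RPKM column averages 3 libraries, every gene having received 1 extra read. Tables were joined on gene ID. Log2((RPKM + 1)/(RPKM + 1)) was computed over the 6295 genes averaging 10 RPKM or more, and 2-fold was the size called. The planned limma test needs a value per library, and these columns are means, so it was not run and no p-value was computed. Genes named in the text were those past 2-fold (up to 10 per direction), the 10 highest, a list of well-known carriers, class extremes and those next to the minimum; a few others, such as Slc43a3, were named after their values were seen. Members, classes and lists were chosen with earlier results of these data known. Alternatives were an added 0.1 or 5 RPKM, no minimum, and median-ratio or upper-quartile scaling over the genes compared, and, added after seeing the data, upper-quartile scaling over genes of at least 1 RPKM. Promoters and positions came from RefSeq (GRCm38.p6). Python 3.11.15, pandas 2.3.3 and numpy 2.4.6 were used. The code was also run on simulated data with planted changes and an assumed spread, for Mettl3-deficient m6A-tagged over input only. Such a run cannot show how reliable the 2-fold calls are, since the spread of the real libraries is unknown.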

Additional observations from a re-analysis of the deposited data

How the results depend on the processing

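No paired analysis was possible because the deposited columns are means of 3 libraries, and for the same reason the replicate block and leave-one-out fits were not run. The values here are the percentages of the solute carrier genes at least 2-fold apart in either direction. For m6A-tagged over input, an added 0.1 RPKM gave 2.63% and an added 5 RPKM gave 0% in Mettl3-deficient cells, against 1.32% with an added 1 RPKM. An added 5 RPKM gave 2.63% in wild-type cells, against 6.58%, and 3.95% for the genotype difference, against 7.89%. Without a minimum, over all 338 Slc-named genes, m6A-tagged over unbound gave 24.3% in Mettl3-deficient cells, against 44.7%, 31.95% in wild-type cells, against 65.8%, and 22.2% for the genotype difference, against 43.4%, since the added genes are low. Of 74 ratios of named genes, 0 reversed under the alternatives run. All 74 kept their side of 2-fold with an added 0.1 RPKM and without a minimum, which was largely fixed in advance. Dropping the minimum leaves each ratio as it was. Apart from the genotype differences, a smaller added amount can only move a ratio away from 0, and no added amount can reverse it. With an added 5 RPKM 12 of the 74 came under 2-fold, with median-ratio scaling 1 (Slc22a3 in input, at -0.998) and with upper-quartile scaling 1 (Slc41a3 in Mettl3-deficient m6A-tagged over unbound, at -0.87). With the quartile over genes of at least 1 RPKM, chosen after seeing the data, 1 did (Slc22a3 in input, at -0.99). Upper-quartile scaling moved the higher share of all genes past 2-fold in wild-type m6A-tagged over unbound to 71.1%, against 61.9%. Without values per library, a difference between means cannot be set against the spread of the libraries.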
